A study of Mus musculus with 33 samples.

Results

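The genes of the GnRH neuron and of the peptides that act on it were read in 33 bulk mRNA libraries of the mouse hypothalamus. The 7 symbols looked up were *Gnrh1*, the kisspeptin gene *Kiss1*, the kisspeptin receptor gene *Kiss1r*, *Gm28040* and *Golt1a* of the *Kiss1* locus, and *Npvf* with its receptor gene *Npffr1*. They gave 8 of the 42824 entries of the deposited table, since *Gm28040* has 2 entries. All mice were adult WT C57BL/6 females without a transgene. They were left intact and taken in diestrus, or were bilaterally ovariectomized (OVX) and studied 14 days or 4 months later. The mice at 4 months after OVX were older at collection than the other groups, and the study had no intact group of their age. Effects of OVX and of age at 4 months therefore cannot be told apart. The posterior hypothalamus (PH) gave 4 libraries of intact mice, 6 at 14 days and 6 at 4 months, and the preoptic area (POA) gave 5, 6 and 6. The controls are titled sham but are intact by a second label and by the study's methods, and they are called intact here. Tissue was dissected and frozen whole, so fewer cells of a type and less RNA per cell cannot be told apart. The labels do not state whether each library came from a separate animal, and *P* values measure the spread between libraries.

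GnRH, encoded by *Gnrh1*, is released by scattered preoptic neurons and drives LH and FSH secretion. Kisspeptin, encoded by *Kiss1*, excites these neurons through a receptor encoded by *Kiss1r*. In rodents it is made by neurons of the arcuate nucleus, where estradiol lowers *Kiss1* expression, and by neurons of the anteroventral periventricular nucleus of the preoptic region, where estradiol raises it. *Npvf* encodes the precursor of the RF-amide-related peptides of dorsomedial hypothalamic neurons, which can restrain GnRH neurons through the receptor encoded by *Npffr1*. *Golt1a*, which encodes a Golgi transport protein, lies just upstream of *Kiss1*.

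The coding stretches of both peptides are shown because the entries below differ in whether their transcripts read them. Both come from GRCm39 with the GENCODE M39 annotation, plus strand, and capitals mark the 10 codons of kisspeptin-10, at chr1:133257318-133257347, and of GnRH, at chr14:67983858-67983887. The kisspeptin stretch lies in coding sequence of the transcript *Gm28040-204* and the GnRH stretch in that of *Gnrh1-201*.
kisspeptin: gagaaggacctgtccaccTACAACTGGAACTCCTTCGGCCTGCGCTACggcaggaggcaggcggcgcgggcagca
GnRH: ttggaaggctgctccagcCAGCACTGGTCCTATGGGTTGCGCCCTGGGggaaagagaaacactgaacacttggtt

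The *Kiss1* locus carries overlapping annotations. In GENCODE M39, *Golt1a* lies at chr1:133237538-133250764, and 2 genes named *Gm28040* start within it and run through the kisspeptin exons, to 133257639 for ENSMUSG00000098306 and 133257465 for ENSMUSG00000115958. That annotation does not use the symbol *Kiss1*, whereas the deposited table lists *Kiss1* as an entry of its own. All 13 transcripts of both *Gm28040* genes cover the stretch at chr1:133254948-133255078 (131 bases), called the shared exon here, and part of the last exon at chr1:133257094-133257432 (339 bases). The 11 transcripts of ENSMUSG00000115958 read the kisspeptin frame of 126 codons. The 2 transcripts of ENSMUSG00000098306, which carry *Golt1a* exons as well, do not, and in *Gm28040-202* the coding sequence ends at 133257121, before the stretch shown above. The table names both entries *Gm28040* without an identifier, so they are called the higher and the lower *Gm28040* entry after their means, and neither was assigned to an Ensembl gene.

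Some of these transcripts differ in the exon junction that enters the shared exon, while in others a longer exon contains it. The following 30-base junctions are shown for that reason, with 15 bases of the upstream exon in lower case and the first 15 bases of the shared exon in capitals. The first joins the first *Golt1a* exon, the second an inner *Golt1a* exon, and the third an exon that lies between *Golt1a* and the *Kiss1* start site. Transcripts of both *Gm28040* genes hold the second junction, so it does not tell the genes apart.
Gm28040-204: tcaccgagtggcagaTCCCTGGAAGGAGAC
Gm28040-202, Gm28040-206 and Gm28040-207: cccttcctgagcacaTCCCTGGAAGGAGAC
Gm28040-212: caactgatggactggTCCCTGGAAGGAGAC

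Because they share exons, reads can be divided among these entries in the authors' pseudoalignment. Of the 31-base words of ENSMUSG00000098306, 86.21% also occur in ENSMUSG00000115958 or *Golt1a*. The share was 32.51% for ENSMUSG00000115958 and 39.72% for *Golt1a*. The values of each single entry are therefore uncertain, and the entries are also given as a sum below.

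**Figure D1:**
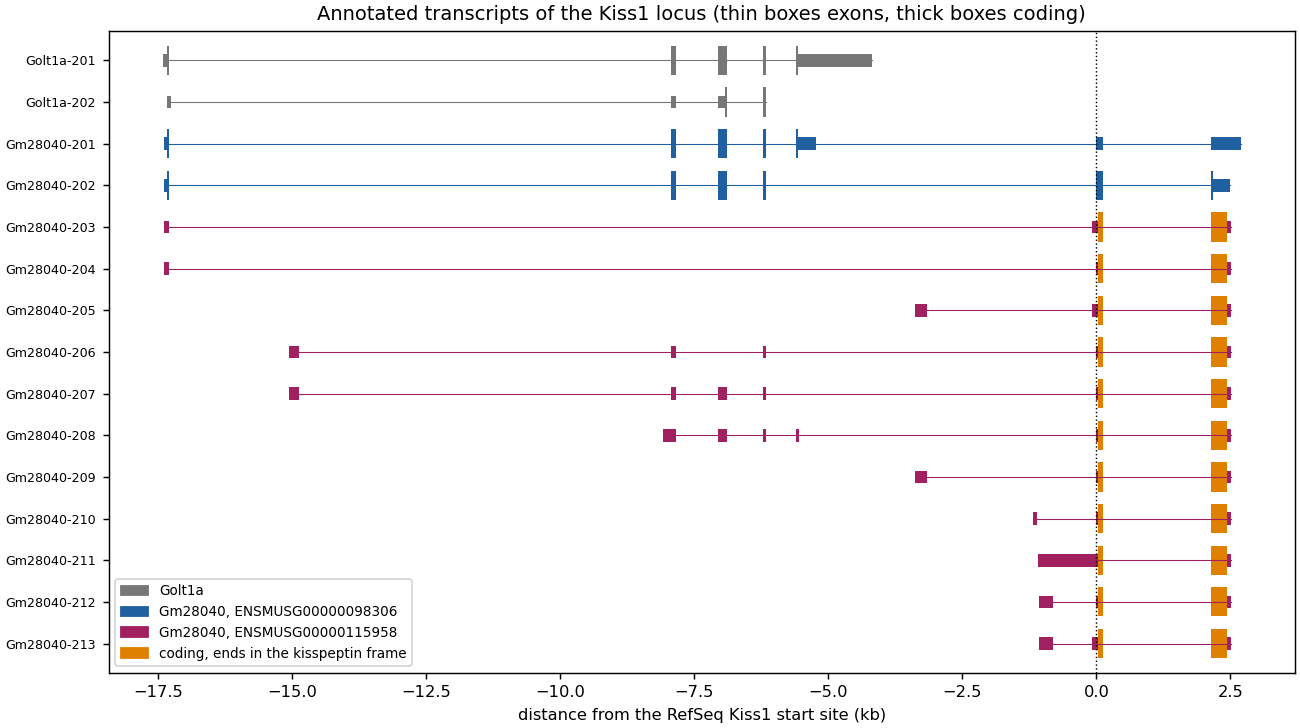
Annotated transcripts of *Golt1a* and of both *Gm28040* genes (GENCODE M39), drawn against the distance in kb from the RefSeq *Kiss1* start site, with exons as thin and coding sequence as thick boxes. The 13 *Gm28040* transcripts share the exons to the right of the start site, and 11 of them are coding in the kisspeptin frame.

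The deposited values are a normalized signal on a linear scale and are not read counts. Entries without measurable expression lie near a floor of 22.2 (4.47 on the log2 scale), so fold changes of low entries are smaller here than they would be for counts, and depth is unknown. Library sums of the signal ran from 44500000 to 72900000 units. The table also carries the mark of a component that appears to have been subtracted from all libraries, called the subtracted component here. This was inferred from the values and is not stated in the sources used here. Of this component 83.55% lay between the regions, and levels are therefore not compared between PH and POA. PH replicate 5 at 14 days stood apart on the first surrogate variable (SV1), at 0.785 against at most 0.195 for the other PH libraries. All 5 neuron, all 7 arcuate and all 6 preoptic markers reached 2 times the floor in every library of both regions. So did all 4 thalamus and all 4 choroid plexus markers, and these counts do not set the regions apart. The tests covered entries with a signal of 2 times the floor or more in 4 or more PH libraries, or in 5 or more POA libraries, and 5 of the 8 entries qualified in both regions. *Kiss1*, *Golt1a* and the lower *Gm28040* entry were not tested.

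The higher *Gm28040* entry changed in opposite directions in the 2 regions after OVX. In the PH it was 3.67-fold higher 4 months after OVX than in intact mice. In the POA it was 0.435 times the intact level 14 days after OVX (fold of geometric means adjusted for SV1). The difference between the regions was called at both times, and no other entry of these genes was called in any of the 8 comparisons.

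In the PH of intact mice, the higher *Gm28040* entry had deposited values of 40.8, 39.3, 38.3 and 37.1. At 14 days after OVX the values ran from 65.6 through a median of 101 to 168. At 4 months they ran from 96.02 through a median of 127 to 326. Every OVX library of the PH was thus above every intact library, at both times, and the highest value was that of replicate 5 at 4 months. The share of all tested genes with such a separation was not counted, here or for the similar statements below. In the PH this entry passed the filter only through the OVX groups, since 0 of 4 intact libraries and all 12 OVX libraries reached 2 times the floor. At 4 months the log2 fold change was 1.87 (SE 0.25, n = 6 and 4, adjusted *P* = 0.00357, limma), and the adjusted *P* was 0.0366 with no filter and 0.0513 with only these groups in the fit. At 14 days it was 1.53 (SE 0.26, unadjusted *P* = 1.31e-05) and ranked first among all genes by *P*, yet the adjusted *P* over 21949 genes was 0.287.

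At 14 days in the PH, 0 of the 5 tested entries and 0% of all tested genes were called by limma, whereas 667 genes (3.04%) had an unadjusted *P* under 0.05. At 4 months, 1 of the 5 entries was called against 0.0319% of all tested genes. Between 14 days and 4 months none of the 5 entries was called, against 0.00911% of all, and the higher *Gm28040* entry differed by a log2 value of 0.34 (SE 0.24, 95% interval -0.16 to 0.84). Without PH replicate 5 at 14 days, its log2 fold changes were 1.54 at 14 days and 1.87 at 4 months. Without replicate 5 at 4 months, the 14-day change was 1.52 and was called (adjusted *P* = 0.00527).

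In the POA of intact mice, the same entry had values of 115, 88.1, 171, 191 and 146. At 14 days the values ran from 45.3 through a median of 53.7 to 79.1, and each of the 6 was below every intact library. At 4 months they ran from 48.8 through a median of 77.1 to 96.3, and 4 of 6 libraries were below every intact library. The log2 fold change at 14 days was -1.20 (SE 0.16, adjusted *P* = 0.0103), and this was the single gene of the 21317 tested in the POA (0.00469%) that was called by limma, with 1308 genes at an unadjusted *P* under 0.05. With only these groups in the fit its adjusted *P* was 0.0861. At 4 months it was -0.80 (SE 0.16, unadjusted *P* = 9.82e-05, adjusted *P* = 0.0722), and 0 of the 5 entries were called against 0.0938% of all genes. The change from 14 days to 4 months was 0.40 (SE 0.15, unadjusted *P* = 0.0172, adjusted *P* = 0.902), and 0 of the 5 entries were called against 0.0281% of all genes. The 14-day call was lost (adjusted *P* at most 0.0642) without intact replicate 1, 3 or 4 or without replicate 4 or 5 at 14 days. It was also lost with a block for the replicate number, with no covariate and within either single batch.

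The change after OVX was larger in the PH than in the POA by a log2 value of 2.75 (SE 0.30, 95% interval 2.13 to 3.36, adjusted *P* = 4.20e-06, interaction in limma) at 14 days. At 4 months this difference was 2.67 (SE 0.30, 2.06 to 3.29, adjusted *P* = 8.34e-06). In these 2 tests, 1 of the 5 entries was called against 0.00453% and 0.00905% of the 22091 genes tested, and the 14-day test called no other gene. Both comparisons share their intact libraries across the times. Within batch 1 the difference was 2.35 at 14 days and 2.15 at 4 months, and within batch 2 it was 2.83 and 3.28. With batch and that subtracted component as covariates, an alternative chosen after the data were seen, it was 2.63 and 2.76.

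The labels assign each library to 1 of 2 batches, both present in every group, without saying what a batch is. Within batches, the higher *Gm28040* entry kept its directions. In the PH its log2 fold change was 1.42 in batch 1 and 1.365 in batch 2 at 14 days, and 1.52 and 2.30 at 4 months. In the POA the values were -0.93 and -1.46 at 14 days, and -0.63 and -0.98 at 4 months. None of these 8 values was called within its single batch (adjusted *P* in limma at least 0.101). Of the 4 differences between the regions, that of batch 1 at 14 days was called (adjusted *P* in limma 0.0412).

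**Figure D2:**
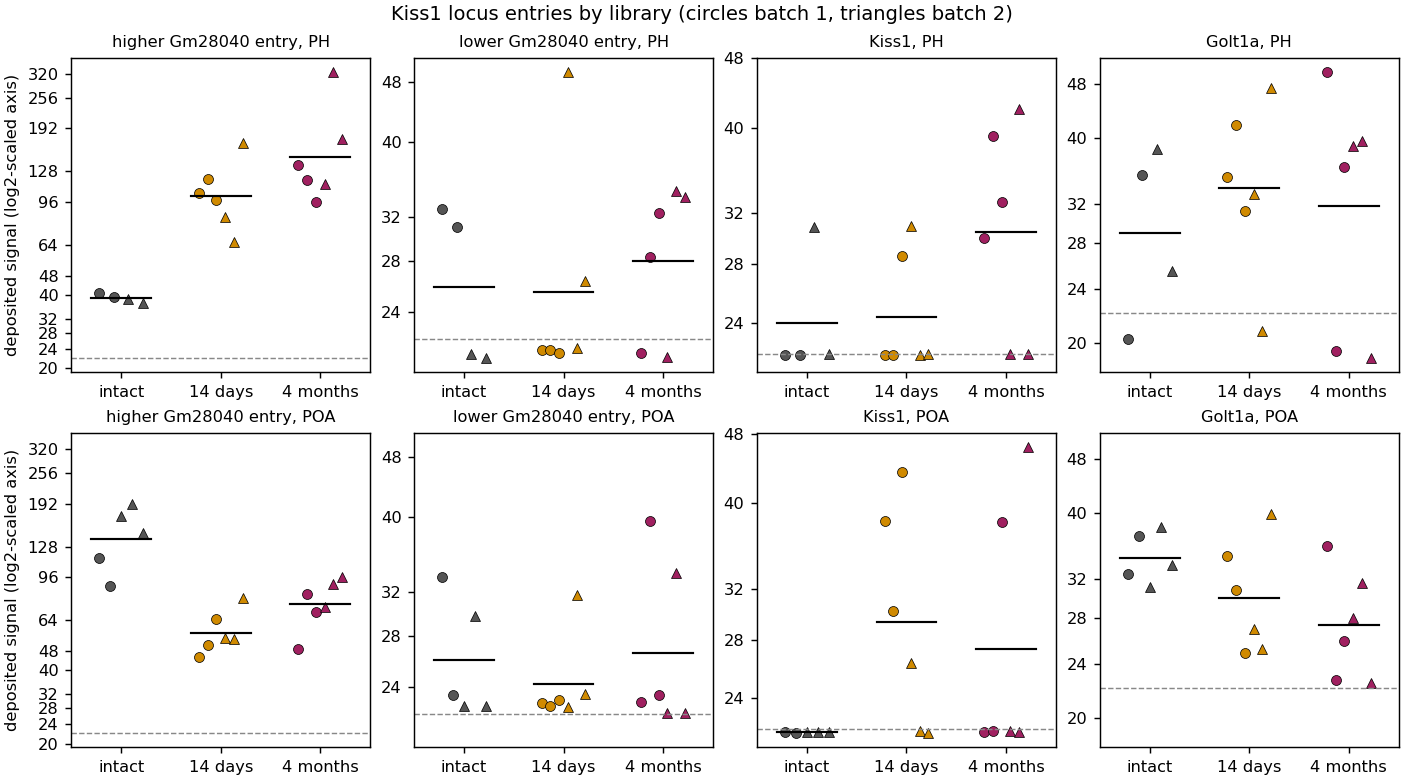
Deposited signal of the 4 entries of the *Kiss1* locus (log2-scaled axis) in each library of the PH (top) and the POA (bottom), with batch 1 as circles, batch 2 as triangles, the floor as a dashed line and geometric means as bars. The higher *Gm28040* entry lay at 37.1 to 40.8 in the intact PH and at 65.6 to 326 after OVX, and at 88.1 to 191 in the intact POA and 45.3 to 96.3 after OVX, whereas many values of the other 3 entries lay at the floor.

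Marker levels are given as sums of the deposited signal over 6 of the 13 marker lists. The 7 arcuate markers summed to 2820 to 3550 in the intact PH, 3071 to 4556 at 14 days and 3551 to 5247 at 4 months. In the POA they summed to 3573 to 3852 in intact mice, 3418 to 9780 at 14 days and 2286 to 4254 at 4 months. The 3 endothelial markers summed to 4319 to 4798 in the intact PH, below all OVX libraries, at 4967 to 6989 at 14 days and 5224 to 8022 at 4 months. Their POA sums overlapped between groups, at 4362 to 5143 in intact mice, 4547 to 5247 at 14 days and 4617 to 7189 at 4 months. The 4 microglia markers summed to 4692 to 5269 in the intact PH, 5028 to 5584 at 14 days and 5523 to 6572 at 4 months. In the POA the microglia sums of intact mice, 4895 to 5313, were below all OVX libraries, at 5339 to 6036 and 5356 to 6485. In the POA, the 6 preoptic markers overlapped between groups, at 1508 to 2664 in intact mice, 1097 to 2793 at 14 days and 1354 to 2778 at 4 months. The 7 anterior pituitary markers reached 7248 in a POA library at 14 days, with a median of 1559 against 282 in intact mice and 280 at 4 months. In the PH their medians were 376, 616 and 292, with a highest value of 4130 in an intact library, and 1 of the 7 reached 2 times the floor in every library of each region. The part of these markers in the *Gm28040* values was not tested.

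The *Kiss1* entry itself was mostly at the floor. Taking a signal of at least 25.5 as above the floor, the entry was above the floor in 1 of 4 intact libraries of the PH, in 2 of 6 at 14 days and in 4 of 6 at 4 months. Its intact values were 22.1, 22.1, 30.9 and 22.2, and the highest value in the PH was 42.1, at 4 months. In the POA it was above the floor in 0 of 5 intact libraries, 4 of 6 at 14 days and 2 of 6 at 4 months, with a maximum of 46.3. The groups overlapped in each comparison of both regions.

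The lower *Gm28040* entry was above the floor in 8 of 16 PH libraries and 5 of 17 POA libraries. Its medians in the PH were 26.1 in intact mice, 21.5 at 14 days and 30.4 at 4 months, and in the POA 23.4, 23.0 and 23.2. *Golt1a* was above the floor in 12 of 16 PH libraries and 13 of 17 POA libraries. Its PH medians were 30.4, 34.1 and 37.5, and its POA medians 33.5, 28.9 and 27.0. The groups of both entries overlapped in every comparison, and 4 of 6 POA libraries had *Golt1a* below every intact library at 14 days and at 4 months.

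To lessen the effect of how reads were divided, the floor was subtracted from *Kiss1* and both *Gm28040* entries, and the remainders were added for each library. In the intact PH this locus sum was 29.3, 26.0, 24.9 and 14.96, which are the values of replicates 1 to 4. It ran from 43.4 through a median of 89.9 to 150 at 14 days and from 92.0 through a median of 120 to 336 at 4 months. Each of the 12 OVX libraries was above every intact library. The mean was 3.87 times that of intact mice at 14 days and 6.49 times at 4 months, and 1.76 and 2.46 times with no floor subtracted. In the intact POA the sum was 104, 67.2, 149, 177 and 124, and at 14 days it ran from 36.4 through a median of 40.3 to 64.5, below every intact library. At 4 months it ran from 27.4 through a median of 70.6 to 98.3, with 3 of 6 libraries below every intact library. The means were 0.371 and 0.532 times that of intact mice, and 0.590 and 0.695 times with no floor subtracted. With *Golt1a* added to the floor-subtracted sum, the means were 3.28 and 5.22 times intact for the PH and 0.398 and 0.525 times for the POA. The higher *Gm28040* entry made up a median of 65.5% of the sum in the intact PH, 98.6% at 14 days and 91.6% at 4 months, and 98.1%, 76.7% and 81.3% in the POA. The sum is a description without a test, and it is carried mostly by the entry described above.

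The RefSeq promoter of *Kiss1* is shown because it precedes the kisspeptin exons that all *Gm28040* transcripts share. The annotated starts of all of these transcripts, and of both *Gm28040* genes, lie upstream of it, so none of them is annotated to start there. The *Kiss1* entry itself was not tested. The promoter table holds 5 of the 7 symbols (build GRCm38.p6), and *Gnrh1* and *Gm28040* had no entry. The *Kiss1* sequence matched GRCm39 once, and the 250 bases before the start site lie at chr1:133254700-133254949, plus strand. Capitals mark TGACC, the reverse complement of GGTCA, which is the half-site of the estrogen response element.
Kiss1 promoter: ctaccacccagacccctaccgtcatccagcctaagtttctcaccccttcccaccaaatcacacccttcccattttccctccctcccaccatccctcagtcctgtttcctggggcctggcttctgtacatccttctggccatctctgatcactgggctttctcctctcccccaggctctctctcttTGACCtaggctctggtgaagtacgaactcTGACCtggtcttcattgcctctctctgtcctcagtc
Both strands were searched over the 300 bases of each promoter for GGTCA and for the full palindromic element, which contains 2 half-sites. *Kiss1* and *Golt1a* each had 2 half-sites, *Npvf*, *Npffr1* and *Kiss1r* had 0, and none of the 5 had the full element. Of 32851 RefSeq promoters, 40.48% held a half-site, 10.81% held at least 2, and 0.07% held the full element. A match is a description of letters and not a binding site.

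*Kiss1r* (chr10:79752079-79759920, plus strand), which encodes the G protein-coupled receptor for kisspeptin, was expressed well above the floor in all 33 libraries. Its values in the intact PH were 242, 278, 311 and 292, and they ran from 205 through a median of 246 to 350 at 14 days and from 199 through a median of 290 to 326 at 4 months. In the intact POA they were 244, 283, 312, 344 and 305, and they ran from 199 through 296 to 371 at 14 days and from 194 through 303 to 376 at 4 months. The groups overlapped in both regions. The log2 fold changes from intact were, for the PH, 0.0079 (SE 0.13) and -0.087 (SE 0.12) and, for the POA, 0.023 (SE 0.099) and 0.052 (SE 0.099), at 14 days and 4 months. Their 95% intervals reached from -0.35 to 0.28 in the PH and from -0.18 to 0.26 in the POA, so changes within these bounds remain possible.

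*Gnrh1* (chr14:67982630-67986888, plus strand) was detected in both regions and varied widely within groups. In the intact PH the values were 52.1, 85.8, 85.0 and 144, against 44.9 to 125 (median 76.9) at 14 days and 59.1 to 161 (median 115) at 4 months. In the intact POA they were 79.8, 68.2, 145, 99.95 and 155, against 72.3 to 182 (median 140) at 14 days and 57.1 to 255 (median 131) at 4 months. The groups overlapped in each comparison. The log2 fold changes were 0.048 (SE 0.22) and 0.26 (SE 0.21) in the PH and 0.35 (SE 0.42) and 0.24 (SE 0.42) in the POA, at 14 days and 4 months. The 95% intervals of the POA changes reached from -0.66 to 1.25. The SD of log2 values within groups was 0.54 in the PH and 0.70 in the POA, larger than that of 95.6% and 98.8% of tested genes.

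*Npvf* (chr6:50627652-50631419, minus strand) also varied widely. Its values in the intact PH were 108, 101, 95.6 and 48.9, against 60.0 to 158 (median 89.8) at 14 days and 36.2 to 133 (median 66.3) at 4 months. In the intact POA they were 68.8, 81.9, 39.98, 56.6 and 56.9, against 35.3 to 109 (median 55.3) at 14 days and 28.6 to 110 (median 54.5) at 4 months. The log2 fold changes were -0.076 (SE 0.27) and -0.19 (SE 0.26) in the PH and 0.015 (SE 0.38) and -0.12 (SE 0.38) in the POA. The SD within groups was 0.60 in the PH and 0.65 in the POA, larger than that of 97.0% and 98.5% of tested genes.

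*Npffr1* (chr10:61430652-61464344, plus strand), which encodes the receptor for the *Npvf* peptides, had values between 519 and 1159 over all libraries. Its values were 965, 605, 519 and 769 in the intact PH and 800, 650, 1027, 895 and 626 in the intact POA. The PH medians at 14 days and 4 months were 802 and 795, and the POA medians 738 and 945. The log2 fold changes from intact were 0.19 (SE 0.21) and 0.22 (SE 0.20) in the PH and -0.024 (SE 0.16) and 0.21 (SE 0.16) in the POA. The groups of *Npvf* and of *Npffr1* overlapped in every comparison. None of the differences between the regions for *Gnrh1*, *Kiss1r*, *Npvf* or *Npffr1* was called, and the unadjusted *P* of these 8 tests was 0.366 or more.

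**Figure D3:**
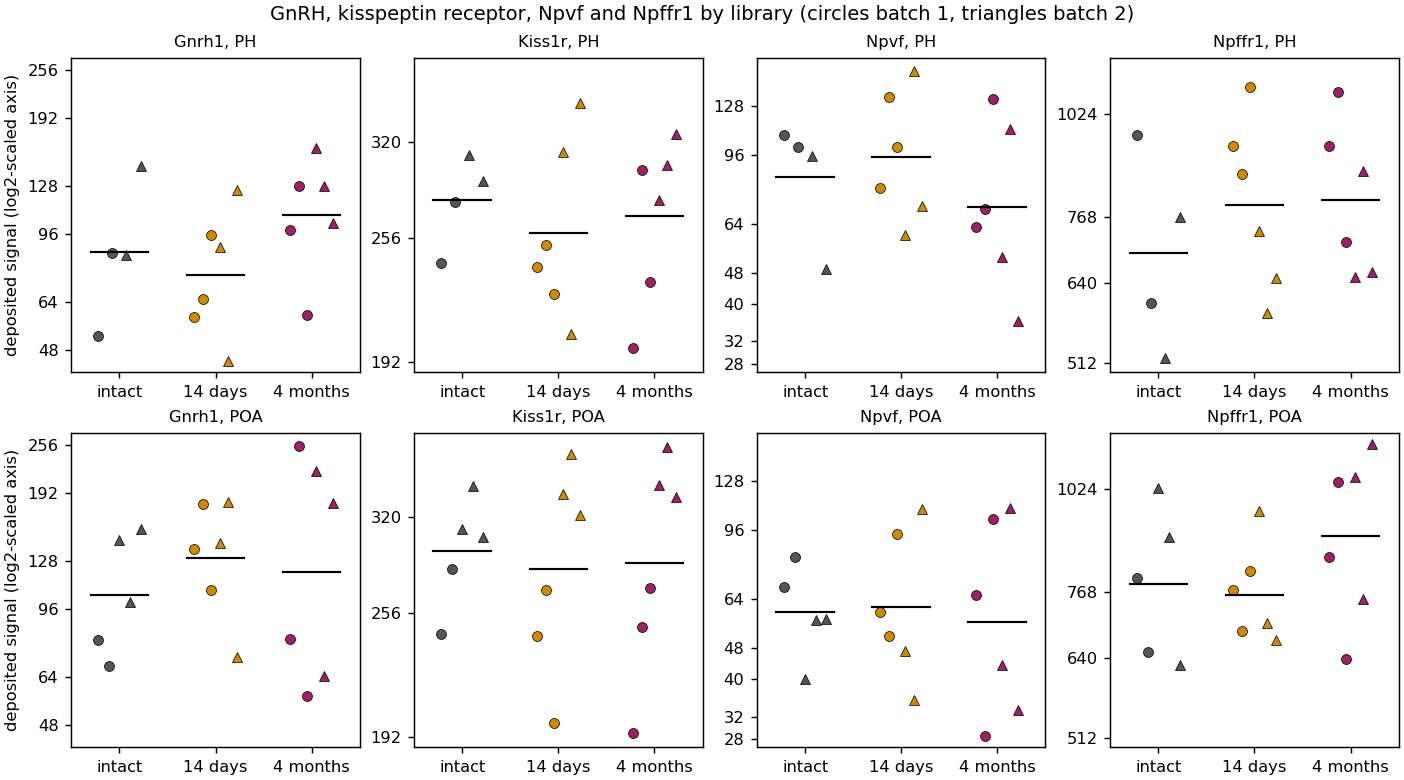
Deposited signal of *Gnrh1*, *Kiss1r*, *Npvf* and *Npffr1* (log2-scaled axis) in each library of the PH (top) and the POA (bottom), with batch 1 as circles, batch 2 as triangles and geometric means as bars. The groups overlap in all 8 panels, and *Gnrh1* and *Npvf* spread over a 3.58- to 4.47-fold range within a region.

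**Figure D4:**
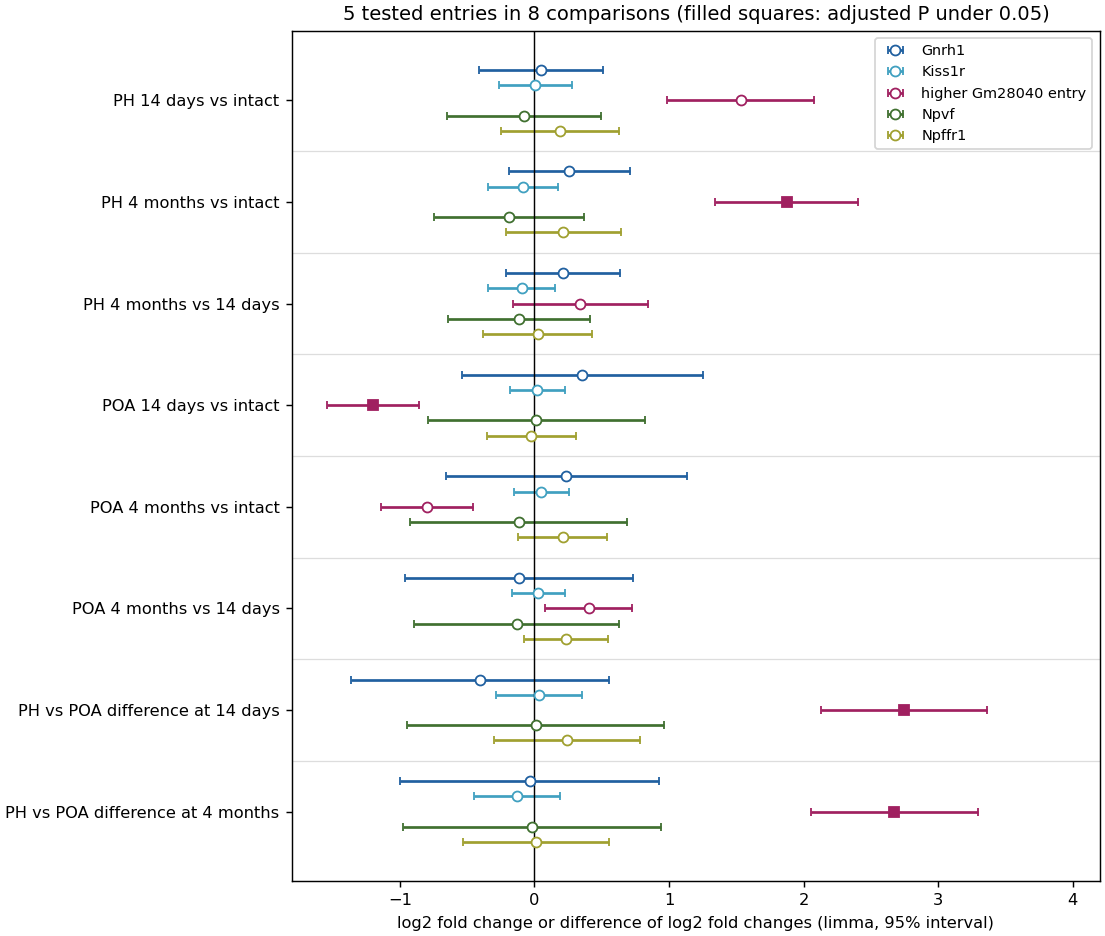
Log2 fold changes of the 5 tested entries in the 6 comparisons within a region, and differences of the log2 fold changes between regions, with 95% intervals from limma. Filled squares mark adjusted *P* under 0.05, which the higher *Gm28040* entry reached in the PH at 4 months (1.87), in the POA at 14 days (-1.20) and in both tests between the regions (2.75 and 2.67). Each of these calls was lost in some alternative fits.

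The spread of *Gnrh1* and *Npvf* followed the component that appears to have been subtracted from the table. This component was read from 108 entries at the floor, whose log2 values lie on 1 line across the 33 libraries, and over all libraries the median absolute correlation of tested genes with it was 0.0235. Most of the component lies between the regions. An entry uncorrelated with it over all libraries but with unequal values in the regions must therefore correlate with it within a region. The permutation *P* values below do not allow for this. Within regions, which was examined after the values had been seen, *Gnrh1* correlated with it at *r* = -0.72 in the PH (permutation *P* = 0.0015, rho = -0.68, *P* = 0.00502, n = 16) and *r* = -0.92 in the POA (*P* = 1e-05, the smallest that 100000 permutations can give, rho = -0.91, *P* = 1e-05, n = 17). *Npvf* correlated at *r* = 0.85 in the PH (permutation *P* = 4e-05, rho = 0.86, *P* = 8e-05) and *r* = 0.93 in the POA (permutation *P* = 1e-05, rho = 0.92, *P* = 2e-05). Without the 2 libraries farthest from the median of the gene, *r* was -0.71 and -0.90 for *Gnrh1* and 0.81 and 0.93 for *Npvf*. Within batches 1 and 2, *r* for *Gnrh1* was -0.71 and -0.64 among PH libraries and -0.93 and -0.96 among POA libraries. For *Npvf* it was 0.67 and 0.96 among PH libraries and 0.94 and 0.93 among POA libraries. The higher *Gm28040* entry correlated with the component at *r* = -0.078 (permutation *P* = 0.775, rho = -0.074, *P* = 0.789) in the PH and 0.073 (permutation *P* = 0.778, rho = 0.074, *P* = 0.782) in the POA. Correlations with an adjusted *P* of 0.0232 were also found for *Kiss1r* in the PH (*r* = -0.62, permutation *P* = 0.0108, rho = -0.63, *P* = 0.00965), for *Npffr1* in the POA (*r* = -0.61, permutation *P* = 0.00991, rho = -0.58, *P* = 0.0178) and for *Golt1a* in the POA (*r* = 0.60, permutation *P* = 0.0116, rho = 0.57, *P* = 0.0185). Without the 2 farthest libraries these were -0.68, -0.44 and 0.44, and within batches -0.23 and -0.70, -0.79 and -0.48, and 0.35 and 0.83.

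*Gnrh1* and *Npvf* moved against each other, at *r* = -0.67 in the PH (permutation *P* = 0.00509, rho = -0.66, *P* = 0.00744) and *r* = -0.89 in the POA (permutation *P* = 2e-05, rho = -0.90, *P* = 2e-05). Without the 2 libraries farthest from the median of *Gnrh1*, *r* was -0.56 and -0.85, and within batches it was -0.62 and -0.62 among PH libraries and -0.87 and -0.91 among POA libraries. Over the 18 relations of this kind, the adjusted *P* of this pair was 0.0153 for the PH and 0.00012 for the POA. The permutation *P* values of this pair do not allow for the relation of both genes to the component. The part of the apparent subtraction in these relations was not tested, and the variation of *Gnrh1* and *Npvf* among libraries of a region cannot be told apart from it. With batch and the component as covariates, the SE of the *Gnrh1* change in the POA was 0.15 at 14 days, in place of 0.42, and the log2 fold changes were 0.13 at 14 days and -0.11 at 4 months. For *Npvf* they were 0.23 (SE 0.14) and 0.22 (SE 0.14), and none was called.

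**Figure D5:**
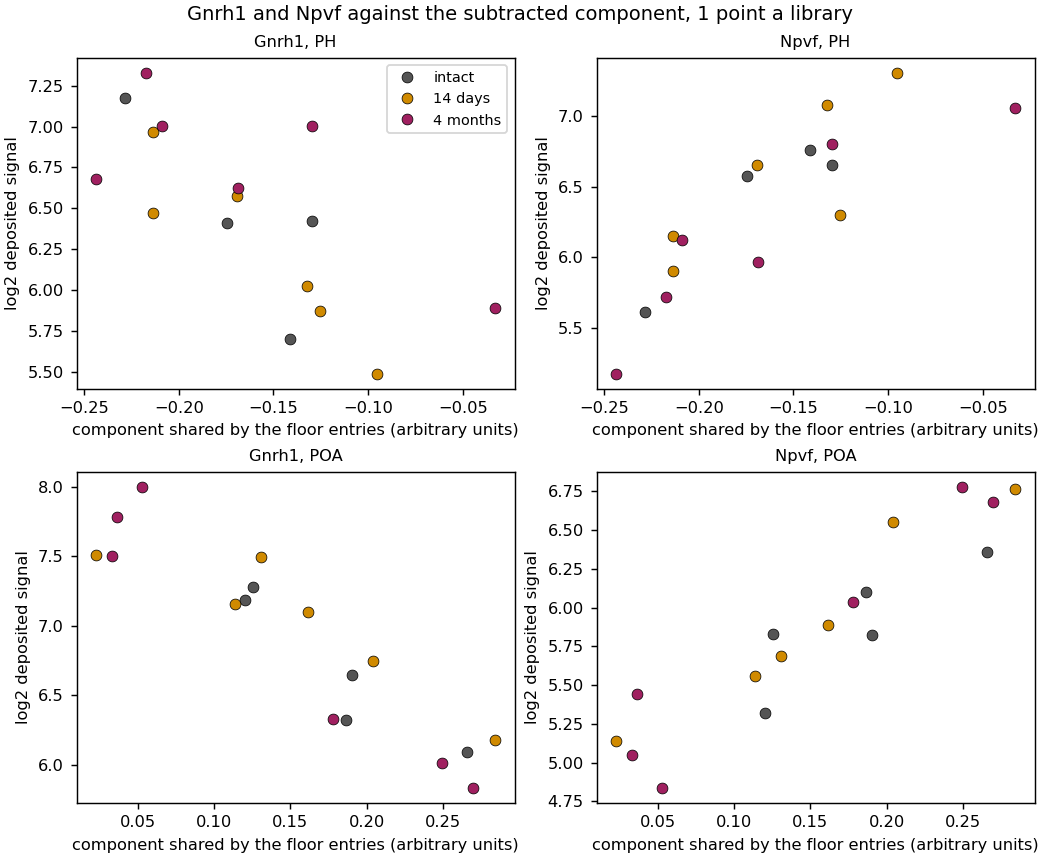
Log2 deposited signal of *Gnrh1* (left) and *Npvf* (right) against the component shared by the floor entries (arbitrary units), with 1 point for each of the 16 PH (top) and 17 POA libraries (bottom). *Gnrh1* falls and *Npvf* rises along the component in both regions (*r* from -0.92 to -0.72 and from 0.85 to 0.93), with the 3 groups mixed along the axis.

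Of the 16 relations planned among the entries, none passed the adjustment. *Npvf* and *Npffr1* in the POA came closest, at *r* = -0.65 (permutation *P* = 0.0058, rho = -0.63, *P* = 0.00938, adjusted *P* = 0.0928), with *r* = -0.61 without the 2 libraries farthest from the median of *Npvf* and -0.71 and -0.58 within batches. *Gnrh1* and *Kiss1r* in the PH had *r* = 0.60 (permutation *P* = 0.015, rho = 0.50, *P* = 0.0525, adjusted *P* = 0.12), with *r* = 0.47 without 2 libraries and 0.24 and 0.65 within batches. *Kiss1* and *Golt1a* in the POA had *r* = -0.47 (permutation *P* = 0.0555, rho = -0.74, *P* = 0.00119, adjusted *P* = 0.296), and *r* = -0.17 without 2 libraries. *Kiss1* and the higher *Gm28040* entry had *r* = 0.37 in the PH (permutation *P* = 0.155, rho = 0.25, *P* = 0.351) and -0.34 in the POA (permutation *P* = 0.181, rho = -0.45, *P* = 0.0696). The 2 *Gm28040* entries had *r* = 0.16 in the PH (permutation *P* = 0.548, rho = 0.28, *P* = 0.301) and 0.20 in the POA (permutation *P* = 0.456, rho = 0.11, *P* = 0.672).

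The rest of the pathway was followed through 8 lists of 103 genes, of which 97 were tested. None of them was called in any of the 8 comparisons by limma, and in the comparisons with intact mice 9 or 10 had an unadjusted *P* under 0.05. These were 9.28% and 10.3% at 14 days and 4 months in the PH and 10.3% at both times in the POA, against 3.04%, 6.06%, 6.14% and 8.5% of all genes. Between 14 days and 4 months the share was 4.12% against 4.09% in the PH and 2.06% against 5.11% in the POA. For the difference between the regions it was 5.15% against 3% at 14 days and 9.28% against 3.6% at 4 months. Among the partners of kisspeptin in arcuate KNDy neurons, which co-release neurokinin B and dynorphin, *Tac2*, the neurokinin B gene, had the smallest *P* in each comparison with intact mice. Its log2 fold change was 0.58 (SE 0.16, unadjusted *P* = 0.00184) and 0.47 (SE 0.15, unadjusted *P* = 0.00706) in the PH, and -0.29 (SE 0.14) and -0.33 (SE 0.14) in the POA, at 14 days and 4 months. Its difference between the regions was 0.88 (SE 0.21, unadjusted *P* = 0.000293, adjusted *P* = 1.0) at 14 days and 0.80 (SE 0.22, unadjusted *P* = 0.00084, adjusted *P* = 1.0) at 4 months. The list's 9 tested genes had median log2 fold changes of 0.074 and 0.0013 for the PH and -0.030 and -0.17 for the POA, against -0.011 to -0.0018 for all genes.

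Among the 6 sex steroid and prolactin receptor genes, *Esr1*, encoding estrogen receptor alpha, had the smallest *P* in the PH at 14 days, with a log2 fold change of 0.39 (SE 0.12, unadjusted *P* = 0.00511). *Pgr*, the progesterone receptor gene, had the smallest *P* in the other 3 comparisons with intact mice, at -0.22 (SE 0.087) in the PH at 4 months and -0.16 (SE 0.062) and -0.24 (SE 0.062, unadjusted *P* = 0.000925, adjusted *P* = 0.199) in the POA. Among the 29 tested genes of inputs to GnRH neurons, *Cartpt*, the gene of a peptide made by arcuate neurons, was at 0.56 (SE 0.16) in the PH and -0.55 (SE 0.18) in the POA at 4 months. Its difference between the regions was 1.13 (SE 0.24, unadjusted *P* = 5.87e-05, adjusted *P* = 0.373). In the same list *Agrp*, the gene of an appetite-promoting arcuate peptide, had the smallest *P* in the PH at 14 days, at -0.57 (SE 0.19). *Pomc*, also counted among the arcuate markers, had the smallest *P* of the list in the POA between 14 days and 4 months. Its log2 change there was -2.62 (SE 0.70, unadjusted *P* = 0.00229, adjusted *P* = 0.706, limma).

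Of 21 tested genes of GnRH neuron development, *Plxna1*, a semaphorin co-receptor gene, was at 0.50 (SE 0.16) and 0.45 (SE 0.15) in the PH at 14 days and 4 months, and *Fgfr1*, a gene needed for GnRH neuron migration, at -0.14 (SE 0.055) and -0.12 (SE 0.055) in the POA. Among the 8 genes of peptide processing and breakdown, *Pam*, encoding the amidating enzyme, was at 0.26 (SE 0.097) and 0.20 (SE 0.095) in the PH. The 14 genes of kisspeptin receptor signaling ranged from -0.18 to 0.26 in the comparisons of the PH with intact mice, with *Trpc1*, a cation channel gene, at -0.18 (SE 0.095) at 14 days. Of the 5 tested other RF-amide genes, *Qrfpr*, the gene of the receptor for the peptide QRFP, was at 0.30 (SE 0.11, unadjusted *P* = 0.0140) in the POA at 4 months. The 5 tested neighbors of the *Kiss1* locus had an unadjusted *P* of 0.0630 or more in all comparisons, and *Ppp1r15b* was at -0.063 (SE 0.074) and -0.10 (SE 0.071) in the PH.

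After subtraction of batch means, the genes most like the higher *Gm28040* entry across the 16 PH libraries were *Gm34066* (*r* = 0.89), *Pcdhb1* (0.84) and *Ly6a* (0.84), and across the 17 POA libraries *Tbrg4* (0.84), *Kif14* (0.82) and *Hepacam* (0.79). Those most like *Gnrh1* in the POA included *Ngfr* (0.92) and *AI606473* (0.92). In the PH they were *Ubac2* (0.92), *Sf3b5* (0.92) and *Ccdc106* (0.91). Those most like *Npvf* in the POA were *Gm9929* (0.94), *Foxa2* (0.93) and *Hcrt* (0.92), the last being the hypocretin gene of lateral hypothalamic neurons, and in the PH *Cbln1* (0.90), *Dpy19l4* (0.90) and *Galnt13* (0.89). The genes named for *Gnrh1* correlated with the subtracted component at -0.95 to -0.66, and those named for *Npvf* at 0.73 to 1.0. These correlations were picked as the highest among all tested genes and carry no test.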

How the data were processed

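The authors dissected and flash-froze the tissue, prepared strand-specific mRNA libraries, ran kallisto against GENCODE M30 (mm39) and tximport, and tested genes in DESeq2 with 1 smartSVA surrogate variable. The deposited table holds a normalized signal on a linear scale, and the step that made it is not given in the sources used here. The values are not counts, so they were tested on the log2 scale.

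From the table, 1259 entries without a name were left out of 42824, and no column lacked a sample. limma 3.58.1 (R 4.3.3, statmod 1.5.0), with trend and robust variances, was fitted to the 3 groups of a region and SV1, estimated by iteratively reweighted surrogate variable analysis in 5 rounds, and to all 6 groups for the difference between the regions. *P* values were adjusted by Benjamini-Hochberg over 21949, 21317 and 22091 genes, and an adjusted *P* under 0.05 was a call. The fits were also run on simulated data with normal noise and a hidden factor, without a floor or the subtracted component. The outcome of that run is not reported here. Permutation tests of correlations were two-sided, with Pearson *P* values adjusted over each family. Python 3.11.15, numpy 2.4.6, scipy 1.17.1 and pandas 2.3.3 were used.

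The members and lists were chosen with earlier results of these data known. All 8 entries are named, a list's gene where called or where it had the smallest *P* of its list in a comparison, and for *Gnrh1*, *Npvf* and the higher *Gm28040* entry the 3 genes most alike, of which 1 is not reported here. Alternatives were batch, no covariate, a replicate block, only the groups compared, single batches, single libraries left out, the floor subtracted with a pseudocount of 10, no filter and, added after the data were seen, the subtracted component.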

Additional observations from a re-analysis of the deposited data

Results flagged for a closer look

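The change of the higher *Gm28040* entry after OVX differed between the PH and the POA by the interaction test in limma, by a log2 value of 2.75 at 14 days and 2.67 at 4 months. Every OVX library of the PH lay above the intact libraries, and the POA libraries at 14 days all lay below them. How many of all tested genes separate in this way was not counted. In 48 sets of libraries of 1 entry in 1 group, the gap between the highest or lowest library and its neighbor, as a share of the group's range, passed Dixon's 95% critical value in 4, and chance passes it in about 1 of 20, a rate that does not hold where the other libraries lie at the floor, as for 3 of these 4. *Kiss1* in the intact PH had a ratio of 0.994, with replicate 3 at 30.9 and the others at the floor. The lower *Gm28040* entry had a ratio of 0.741 in the PH at 14 days, with replicate 4 at 49.4, and of 0.885 in the POA at 14 days, with replicate 5 at 31.7. *Npvf* in the intact PH had a ratio of 0.844, with replicate 4 lowest at 48.9.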

How the results depend on the processing

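The depth of the libraries is unknown, the values of the *Kiss1* locus entries depend on how shared reads were divided, and the floor compresses the fold changes of low entries. The cause of the changes listed here was not tested.

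The higher *Gm28040* entry kept its direction in all 237 alternative values, and 217 also stayed on the same side of the threshold. At 14 days in the PH, 1 entry was called with the replicate block (log2 fold change 1.49, adjusted *P* = 0.00983) and with only the 2 groups compared (adjusted *P* = 0.0242). At 4 months in the PH, 0 were called with only the 2 groups (adjusted *P* = 0.0513) and in either single batch. At 14 days in the POA, 0 were called without a covariate, with the replicate block (-1.29, adjusted *P* = 0.178), with only the 2 groups (adjusted *P* = 0.0861) and in either single batch. At 4 months in the POA, 1 was called with the subtracted component and batch. The difference between the regions had 0 calls in batch 2 at 14 days and in either batch at 4 months. With single libraries left out, 0 to 1 entries were called at 14 days in each region. The log2 fold changes then ran from 1.40 to 1.70 and 1.66 to 1.97 in the PH, from -1.32 to -1.13 and -0.92 to -0.73 in the POA, and from 2.65 to 2.90 and 2.48 to 2.79 between the regions. With no floor subtracted, the locus sums were 1.76 and 2.46 times intact in the PH and 0.590 times in the POA at 14 days. Over the alternatives, the genes called among all tested ran from 0 to 2, 0 to 14 and 0 to 3 for the PH (0, 7 and 2 as reported at 14 days, at 4 months and between the times) and from 0 to 4, 0 to 55 and 0 to 7 for the POA (1, 20 and 6).

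Replicate numbers were not taken to pair the libraries, since same-numbered libraries correlated above 0.1 for 9 of 14 PH pairs and 14 of 16 POA pairs, not for every pair. The other POA pairs set intact replicate 3, of batch 2, against libraries of batch 1. All POA pairs within a batch thus passed, and whether the numbers pair the POA libraries is not known. Between the regions, 14 of 16 pairs correlated above 0.1, and their replicate block gave differences of 2.64 and 2.77.

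The uncalled small log2 changes of the other entries reversed as follows. With batch in place of SV1, the values were *Gnrh1* -0.19 (PH 14 days), 0.084 (PH minus POA at 4 months), *Npvf* 0.17 (PH 14 days) and *Kiss1r* -0.11 (PH 14 days), 0.054 (PH between times), -0.011 (POA 14 days), -0.087 (PH minus POA at 14 days). With no covariate, the values were *Gnrh1* -0.19 (PH 14 days), 0.12 (PH minus POA at 4 months), *Npvf* 0.17 (PH 14 days) and *Kiss1r* -0.11 (PH 14 days), 0.054 (PH between times), -0.059 (POA 14 days), -0.040 (POA 4 months), -0.050 (PH minus POA at 14 days). With the replicate block, the values were *Gnrh1* -0.0064 (PH 14 days), *Npvf* 0.077 (PH 14 days), -0.21 (POA 14 days), -0.062 (PH minus POA at 14 days), *Kiss1r* -0.085 (PH 14 days), -0.019 (PH minus POA at 14 days) and *Npffr1* -0.073 (PH between times), 0.042 (POA 14 days). With the subtracted component and batch, the values were *Gnrh1* -0.13 (PH 14 days), -0.11 (POA 4 months), 0.43 (PH minus POA at 4 months), *Npvf* 0.072 (PH 14 days), 0.22 (POA 4 months), -0.15 (PH minus POA at 14 days) and *Kiss1r* -0.089 (PH 14 days), 0.037 (PH between times), -0.0072 (POA 14 days), -0.070 (PH minus POA at 14 days). With batch 2 only, the values were *Gnrh1* -0.48 (PH 14 days), -0.088 (POA 14 days), 0.15 (POA between times), 0.15 (PH minus POA at 4 months), *Npvf* 0.36 (PH 14 days), 0.098 (POA 4 months), *Kiss1r* -0.095 (PH 14 days), 0.0053 (PH 4 months), 0.10 (PH between times), -0.19 (PH minus POA at 14 days) and *Npffr1* -0.037 (PH minus POA at 4 months). With only the groups compared, the values were *Kiss1r* -0.0058 (PH 14 days) and *Npffr1* -0.018 (PH between times). With batch 1 only, the values were *Kiss1r* -0.12 (PH 14 days), 0.0078 (PH between times), -0.16 (POA 14 days), -0.16 (POA 4 months), 0.044 (PH minus POA at 4 months), *Npffr1* -0.096 (PH between times), 0.070 (POA 14 days) and *Npvf* -0.19 (POA 14 days), 0.060 (PH minus POA at 4 months). With the floor subtracted, the values were *Npvf* -0.0044 (POA 14 days), 0.026 (PH minus POA at 4 months). With the replicate block of pairs, the values were *Kiss1r* -0.061 (PH minus POA at 14 days). With single libraries left out, *Gnrh1* crossed 0, at -0.11 to 0.21 (PH 14 days), -0.29 to 0.21 (PH minus POA at 4 months), -0.36 to 0.11 (POA between times). With single libraries left out, *Kiss1r* crossed 0, at -0.057 to 0.070 (PH 14 days), -0.029 to 0.095 (PH minus POA at 14 days), -0.015 to 0.080 (POA 14 days), -0.011 to 0.089 (POA between times). With single libraries left out, *Npvf* crossed 0, at -0.25 to 0.038 (PH 14 days), -0.27 to 0.0057 (PH between times), -0.18 to 0.21 (PH minus POA at 14 days), -0.24 to 0.25 (PH minus POA at 4 months), -0.26 to 0.18 (POA 14 days), -0.37 to 0.090 (POA between times), -0.39 to 0.078 (POA 4 months). With single libraries left out, *Npffr1* crossed 0, at -0.070 to 0.13 (PH between times), -0.14 to 0.18 (PH minus POA at 4 months), -0.11 to 0.059 (POA 14 days).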
